A study of Saccharomyces cerevisiae with 6 samples.

Results

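The genes described here were listed under the late secretory pathway, the endosome and the vacuole of budding yeast (Saccharomyces cerevisiae). The list also holds YOP1, whose protein shapes the endoplasmic reticulum. They were chosen by gene name, and all of their introns in the deposited counts were taken: 11 introns of 10 genes, of 309 introns of 298 genes in all. The assay was MPE-seq (multiplexed primer extension sequencing). It primes cDNA with many oligonucleotides just downstream of chosen introns, and a read either still holds the intron (an unspliced read) or shows it removed (a spliced read). The comparison was between 3 wild type (WT) libraries of strain EJS1 and 3 libraries of strain EJS7, which carries prp2-1, a temperature-sensitive allele of the gene for the spliceosomal ATPase Prp2. The libraries of each strain are replicates A, B and C. All cells grew in YPD at 25 °C and were moved to 37 °C for 15 minutes before collection, so the controls had the same heat treatment, and 10 µg of RNA entered each library. PRP2 has no intron among those targeted, so the mutant label could not be checked on its own gene. The labels do not say which libraries came from separate cultures. The p-values therefore measure the spread between these libraries, which may be technical.

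Proteins and lipids that leave the Golgi reach the plasma membrane, the endosome or the vacuole in vesicles. SNARE proteins fuse these vesicles with their target, coat complexes such as AP-3 and retromer sort the cargo, and ESCRT-III proteins pinch vesicles into the endosome. The vacuole, the yeast counterpart of the lysosome, is acidified by a proton pump, the V-ATPase. Splicing of these transcripts, as of others, needs Prp2, a DEAH-box ATPase that remodels the assembled spliceosome before the first chemical step. Within an intron the spliceosome reads the 5′ splice site, the branch site that carries the reactive adenosine, and the 3′ splice site.

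Of the 11 introns, 6 are printed below because they hold the largest changes (NYV1, IST1), the pair within 1 transcript (VMA9), or the departures from the usual splice signals (NYV1, SNC1, YIP3). Sequences and positions are from the RefSeq genome of build R64. The sequences read 5′ to 3′ on the coding strand, as in the RNA. Capitals mark the first 6 bases, the 7 bases of the branch site and the last 3 bases.
NYV1 intron (chrXII:327259-327399, minus strand): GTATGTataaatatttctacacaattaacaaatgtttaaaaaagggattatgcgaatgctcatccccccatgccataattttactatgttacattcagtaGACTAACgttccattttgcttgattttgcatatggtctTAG
IST1 intron (chrXIV:145150-145254, minus strand): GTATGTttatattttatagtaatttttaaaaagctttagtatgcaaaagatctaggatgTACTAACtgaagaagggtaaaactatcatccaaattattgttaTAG
VMA9 intron 1 (chrIII:107034-107110, plus strand): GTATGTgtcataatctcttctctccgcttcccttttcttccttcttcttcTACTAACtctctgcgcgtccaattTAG
VMA9 intron 2 (chrIII:107192-107287, plus strand): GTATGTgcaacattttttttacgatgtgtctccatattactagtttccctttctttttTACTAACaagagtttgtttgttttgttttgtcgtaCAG
SNC1 intron (chrI:87388-87500, plus strand): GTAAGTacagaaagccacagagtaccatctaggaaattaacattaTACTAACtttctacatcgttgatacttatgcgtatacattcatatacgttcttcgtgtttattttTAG
YIP3 intron (chrXIV:545292-545370, plus strand): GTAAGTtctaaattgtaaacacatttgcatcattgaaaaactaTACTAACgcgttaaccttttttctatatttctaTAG

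The other 5 introns lie on chrVIII:129529-129647 (VPS29, plus strand), chrVIII:187515-187676 (VMA10, minus strand), chrX:396494-396570 (APS3, minus strand), chrXI:437838-437905 (DID4, plus strand) and chrXVI:623578-623710 (YOP1, plus strand). All 11 separate coding exons, and no other annotated gene overlaps them or the 150 bases downstream. The introns are 68 bases (DID4) to 162 bases (VMA10) long, with a median of 105, against a median of 139 over the 279 introns of the series that could be placed on the annotation. The first 6 bases are GTATGT in 9 of the 11, against 73.1% of placed introns, and GTAAGT in SNC1 and YIP3. The branch motif TACTAAC, searched on the coding strand alone, is present in 10 of the 11 and in 82.4% of placed introns. NYV1 lacks it and has GACTAAC as its closest match. All 11 introns end in AG. The branch adenosine is 21 bases from the 3′ end of the intron in VMA9 intron 1, 62 bases in SNC1 and 105 bases in VMA10. Translation through a kept intron would meet a stop codon inside the intron in 9 of the 11 (95.3% of placed introns) and in the exon downstream in VPS29 and YOP1.

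Library totals were 1612685 to 2516774 reads in WT and 1845258 to 2671271 in prp2-1, and the 11 introns took 0.746% to 1.06% of them. Libraries of 1 group differed by more than counting error, with a chi-square per degree of freedom of 32.5 to 116 for each pair. As a check on the cells, 14 introns of 12 genes listed as marks of another cell type or state were read. They belong to meiotic genes and to HMRA1, a silent mating-type gene. Together they took 0.274% to 0.316% of the reads in WT and 0.0230% to 0.0448% in prp2-1. HMRA1 intron 1 had 4902 to 6526 reads in the WT libraries and 1 to 6 in the prp2-1 libraries. The mating type of the strains was not checked, and the source of these HMRA1 reads was not tested. The markers other than HMRA1 summed to 192 to 373 reads in WT and 488 to 1015 in prp2-1. Most of that rise was in REC114, which had 4 to 19 and 230 to 577 reads. In unscaled reads, PCH2 (9 to 18 and 27 to 33), MND1 (12 to 15 and 24 to 41) and SAE3 (0 to 2 and 3 to 6) were also higher in prp2-1. SPO1 (2 and 0 to 1) was lower. The remaining meiotic markers overlapped between strains, among them REC107 (95 to 214 and 127 to 236) and HOP2 intron 2 (54 to 87 and 49 to 85). HMRA1 intron 2 and HOP2 intron 1 were at 0 in 5 of the 6 libraries. The reads of HMRA1 intron 1 and REC114 moved with the strain in every comparison below, and their part in the results was not tested. Each group is 1 strain, so any difference between EJS1 and EJS7 other than prp2-1 cannot be told apart from that of the allele.

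An intron was tested when its spliced and unspliced reads averaged at least 10 per library, which held for 10 of the 11 introns and for 274 of the 309. VPS29 fell below. In the ratio of unspliced to spliced reads, all 10 tested introns rose in prp2-1 by edgeR's quasi-likelihood test with Benjamini-Hochberg adjustment over 274 introns (adjusted p under 0.05). The background for that call was 93.4% of all tested introns and 91.8% of the 170 that lie outside ribosomal protein genes, so the count itself is close to that of the series. The log2 changes ran from 1.74 in VMA9 intron 1 to 10.73 in NYV1, with a median of 6.01, beside 4.64 over all tested introns and 5.40 over those outside ribosomal protein genes. The unspliced percent is the share of an intron's reads that were unspliced. Its median over the 10 introns was 3.69% to 4.42% in the WT libraries and 60.3% to 72.8% in the prp2-1 libraries. Over the 170 tested introns outside ribosomal protein genes it was higher in both, at 10.1% to 10.9% and 88.0% to 94.0%. Taken per library with a pseudocount of 0.5, the median log2 ratio of the 10 introns changed by 5.63 between the group means, and that of the 170 by 6.37, so which class has the larger change depends on how the median is formed. In all 10 introns the libraries of the groups did not overlap in unspliced percent, as in 92% of all tested introns.

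**Figure D1:**
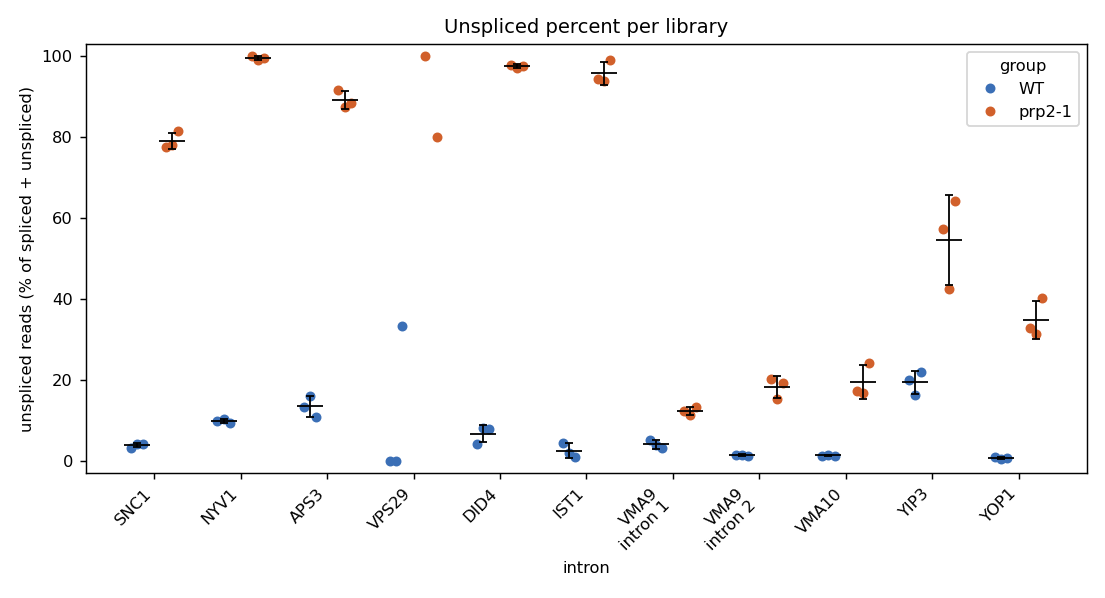
Unspliced percent (vertical axis, share of each intron's spliced and unspliced reads) in every library. Points are libraries (WT blue, prp2-1 orange), and bars are the mean and SD of 3 libraries, drawn for the 10 tested introns. NYV1, DID4 and IST1 lie above 93% in every prp2-1 library, whereas both VMA9 introns and VMA10 stay below 25%; VPS29 rests on 0 to 7 reads per library.

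The largest change of the 10 was in a SNARE gene. NYV1 (YLR093C) encodes the R-SNARE of vacuole fusion. Its intron had 271, 421 and 529 spliced and 30, 49 and 55 unspliced reads in replicates A, B and C of WT. In prp2-1 it had 0, 5 and 4 spliced and 342, 559 and 807 unspliced reads. Nearly every NYV1 read in the mutant thus held the intron, and no prp2-1 library came near a WT one. The 0 of 342 reads in prp2-1 replicate A allows a spliced share of up to 0.877%, a limit for counting error only. The unspliced percent went from 9.94% ± 0.505 to 99.5% ± 0.444 (SD, n = 3 each), a log2 ratio change of 10.73 ± 0.53 (SE, adjusted p = 5.97e-15) that ranked 5 of 274. SNC1 (YAL030W) encodes a SNARE of exocytic vesicles. It had 1727, 1816 and 2237 spliced and 60, 82 and 98 unspliced reads in WT, and 270, 353 and 414 spliced and 936, 1256 and 1815 unspliced reads in prp2-1. Most SNC1 reads in the mutant were unspliced, but each library still held 270 or more spliced reads. In unspliced percent this was a rise from 3.96% ± 0.524 to 79.0% ± 2.08, and a log2 ratio change of 6.52 ± 0.35 (adjusted p = 2.23e-14). SNC1 has a close relative, SNC2, and the sources used here do not say how reads that fit both were assigned.

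Of the sorting coats, APS3 (YJL024C) encodes the small subunit of the AP-3 adaptor, which carries cargo from the Golgi to the vacuole. Its intron had 188, 207 and 236 spliced and 29, 40 and 29 unspliced reads in WT. In prp2-1 it had 12, 24 and 25 spliced and 131, 167 and 193 unspliced reads. The groups did not overlap in either read type. The unspliced percent rose from 13.5% ± 2.63 to 89.2% ± 2.16, with a log2 ratio change of 5.72 ± 0.45 (adjusted p = 1.61e-11). VPS29 (YHR012W) encodes a retromer subunit, which returns receptors from the endosome to the Golgi. It had 1, 7 and 4 spliced and 0, 0 and 2 unspliced reads in WT, and 0, 0 and 1 spliced and 0, 3 and 4 unspliced reads in prp2-1, replicate A having none. Summed over libraries, 2 of 14 WT reads were unspliced (14.3%, exact 95% interval 1.78% to 42.8%) and 7 of 8 in prp2-1 (87.5%, 47.3% to 99.7%). With no filter on low counts, the edgeR ratio change of VPS29 was 4.82 on the log2 scale with an adjusted p of 0.0547, and that of its spliced reads was -3.27 with an adjusted p of 0.0495. At this depth VPS29 is given by its counts alone.

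The ESCRT-III genes DID4 (YKL002W, also called VPS2, a subunit of the filament) and IST1 (YNL265C, which binds ESCRT-III and modulates its disassembly) followed NYV1 in the size of the change. DID4 had 921, 1250 and 1390 spliced and 41, 111 and 121 unspliced reads in WT. In prp2-1 it had 25, 49 and 57 spliced and 1157, 1572 and 2341 unspliced reads. The unspliced percent of DID4 rose from 6.81% ± 2.21 to 97.5% ± 0.467, a log2 ratio change of 9.09 ± 0.40 (adjusted p = 1.60e-15) and rank 14 of 274. IST1 had 104, 186 and 175 spliced and 5, 4 and 2 unspliced reads in WT, and 3, 5 and 1 spliced and 51, 75 and 105 unspliced reads in prp2-1. Each IST1 library thus had 5 or fewer reads of its minor form, and the groups were far apart. The unspliced percent of IST1 rose from 2.61% ± 1.78 to 95.8% ± 2.88, with a log2 ratio change of 9.92 ± 0.70 (adjusted p = 3.07e-12) and rank 8 of 274. That standard error is the largest of the 10 introns.

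The V-ATPase introns kept most of their spliced reads. VMA10 (YHR039C-A) encodes a stalk subunit of the V1 part of the pump and had the most reads of the 10 genes. It had 6893, 7620 and 8668 spliced and 96, 118 and 118 unspliced reads in WT. In prp2-1 it had 5541, 7622 and 6709 spliced and 1169, 1529 and 2153 unspliced reads. Its unspliced percent rose from 1.41% ± 0.0974 to 19.5% ± 4.19, a log2 ratio change of 4.06 ± 0.33 (adjusted p = 3.57e-11). VMA9 (YCL005W-A) encodes a small membrane subunit of the V0 part and has 2 introns. Intron 1 had 1680, 2051 and 3006 spliced and 94, 84 and 99 unspliced reads in WT, and 1241, 1841 and 1666 spliced and 176, 237 and 258 unspliced reads in prp2-1. Intron 2 had 2284, 2661 and 3298 spliced and 37, 41 and 41 unspliced reads in WT, and 1795, 2159 and 1894 spliced and 459, 391 and 453 unspliced reads in prp2-1. For both introns of VMA9 the unspliced reads of every mutant library exceeded those of every WT library, by far more in intron 2. The unspliced percent rose from 4.14% ± 1.07 to 12.4% ± 1.00 in intron 1 (log2 ratio change 1.74 ± 0.33, adjusted p = 2.84e-05). In intron 2 it rose from 1.45% ± 0.193 to 18.3% ± 2.65 (log2 ratio change 3.93 ± 0.34, adjusted p = 8.92e-11).

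The order of the VMA9 introns turned over between the strains. The log2 ratio of intron 1 minus that of intron 2, each with a pseudocount of 0.5, was 1.78, 1.40 and 1.40 in the A, B and C libraries of WT. In prp2-1 it was -0.85, -0.49 and -0.63. Intron 1 was thus the less completely spliced of the pair in 3 of 3 WT libraries, and intron 2 in 3 of 3 prp2-1 libraries. The means were 1.52 ± 0.22 and -0.66 ± 0.18, a difference of -2.18. An exact two-sided permutation test gave p = 0.1, the smallest that 3 libraries against 3 allow. As printed above, both introns begin with GTATGT and hold TACTAAC, intron 1 ends in TAG and intron 2 in CAG, and the branch adenosine is 21 and 32 bases from the end.

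**Figure D2:**
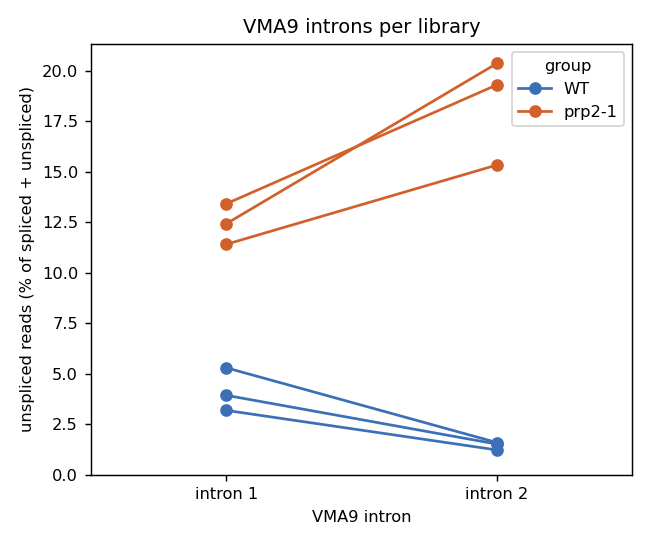
Unspliced percent (vertical axis) of VMA9 intron 1 and intron 2, with a line joining the introns of each library (WT blue, prp2-1 orange, 3 libraries each). Every WT line falls from intron 1 to intron 2 and every prp2-1 line rises.

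YIP3 (YNL044W) encodes a protein that binds Rab GTPases, the switches of vesicle targeting, and YOP1 (YPR028W) a membrane protein that curves endoplasmic reticulum tubules and binds the Rab-interacting protein Yip1. YOP1 had 2559, 3457 and 3883 spliced and 23, 15 and 29 unspliced reads in WT. In prp2-1 it had 768, 1211 and 754 spliced and 376, 556 and 509 unspliced reads. Its WT unspliced percent, 0.688% ± 0.234, was the lowest of the 10 introns and did not overlap with that of any other. In prp2-1 it was 34.9% ± 4.75, a log2 ratio change of 6.30 ± 0.38 (adjusted p = 1.85e-13). YIP3 had 88, 129 and 117 spliced and 22, 25 and 33 unspliced reads in WT, and 89, 180 and 73 spliced and 120, 133 and 131 unspliced reads in prp2-1. The unspliced reads of YIP3 did not overlap between groups, and the spliced reads did. The unspliced percent rose from 19.4% ± 2.93 to 54.7% ± 11.1 (log2 ratio change 2.33 ± 0.45, adjusted p = 3.84e-05). The spliced counts of YIP3 differ between the deposited tables, as described further on, and each value that uses them is uncertain.

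Ranked by WT unspliced percent, the order was YIP3, APS3, NYV1, DID4, VMA9 intron 1, SNC1, IST1, VMA9 intron 2, VMA10 and YOP1. The ranges of neighbours overlapped from DID4 to VMA10 and did not overlap elsewhere. In prp2-1 the order was NYV1, DID4, IST1, APS3, SNC1, YIP3, YOP1, VMA10, VMA9 intron 2 and VMA9 intron 1. There the ranges of DID4 and IST1 overlapped, as did those of VMA10 and VMA9 intron 2. IST1 went from the seventh place to the third. The first place of YIP3 in WT rests on the full counts. By the draws of 800000 reads described further on, its WT percent was 5.66%, below APS3 (15.4%), NYV1 (9.09%) and DID4 (6.25%). Across the 10 introns, Spearman's rho between the WT and the prp2-1 percent was 0.455, beside 0.805 across the 170 tested introns outside ribosomal protein genes. The introns share their 6 libraries, and these values describe them only. Among the mutant libraries, replicate B had the lowest unspliced percent in 9 of the 10 introns, and replicate C the highest in 6 and replicate A in 4. Over all tested introns, the median percent was also lowest in prp2-1 replicate B (42.7%) and highest in replicate C (54.5%).

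The ratio can rise through more unspliced RNA, less spliced RNA or both, so each was tested on its own. Reads were scaled to 1000000 reads of the library's total, with its TMM factor, so every change below is relative to the other targeted introns. In such bulk samples, fewer cells with a transcript and less of it per cell cannot be told apart. Unspliced reads rose in 10 of 10 introns (background 90.9%), by log2 changes of 1.13 in VMA9 intron 1 (adjusted p = 0.000619) to 4.29 in YOP1. The median was 3.65, beside 3.02 over all tested introns. Spliced reads fell in 9 of 10 introns (background 57.7% of all tested introns and 83.5% outside ribosomal protein genes). The median log2 change of spliced reads was -2.29, beside -0.91 over all tested introns and -2.67 outside ribosomal protein genes. The tenth intron was that of YIP3, at -0.12 (adjusted p = 0.742) in the full counts.

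The introns differed more in the spliced than in the unspliced reads. NYV1 went from 164, 210 and 210 scaled spliced reads in WT to 0, 1.94 and 1.78 in prp2-1, so that its prp2-1 mean was 0.636% of the WT mean (log2 change -7.13). IST1 kept 1.78%, DID4 3.34% and APS3 8.66% of their WT mean of spliced reads. SNC1 kept 16.5% (log2 change -2.60) and YOP1 25.4% (-1.98). VMA9 kept 65.8% in intron 1 and 66.0% in intron 2, which gave log2 changes of -0.60 each from separately counted introns. VMA10 kept 78.3%, from 4175, 3793 and 3434 scaled spliced reads in WT to 2997, 2950 and 2980 in prp2-1. All 3 mutant libraries lay below the lowest WT library for VMA10, and the log2 change was -0.35 ± 0.09 (adjusted p = 0.00519). Of all 274 tested introns, the groups did not overlap in scaled spliced reads in 188 and in scaled unspliced reads in 259. The unspliced mean rose between 10.2 and 19.6 times in 7 of the 10 introns, and by 2.19 times in VMA9 intron 1, 4.52 times in APS3 and 4.49 times in YIP3.

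**Figure D3:**
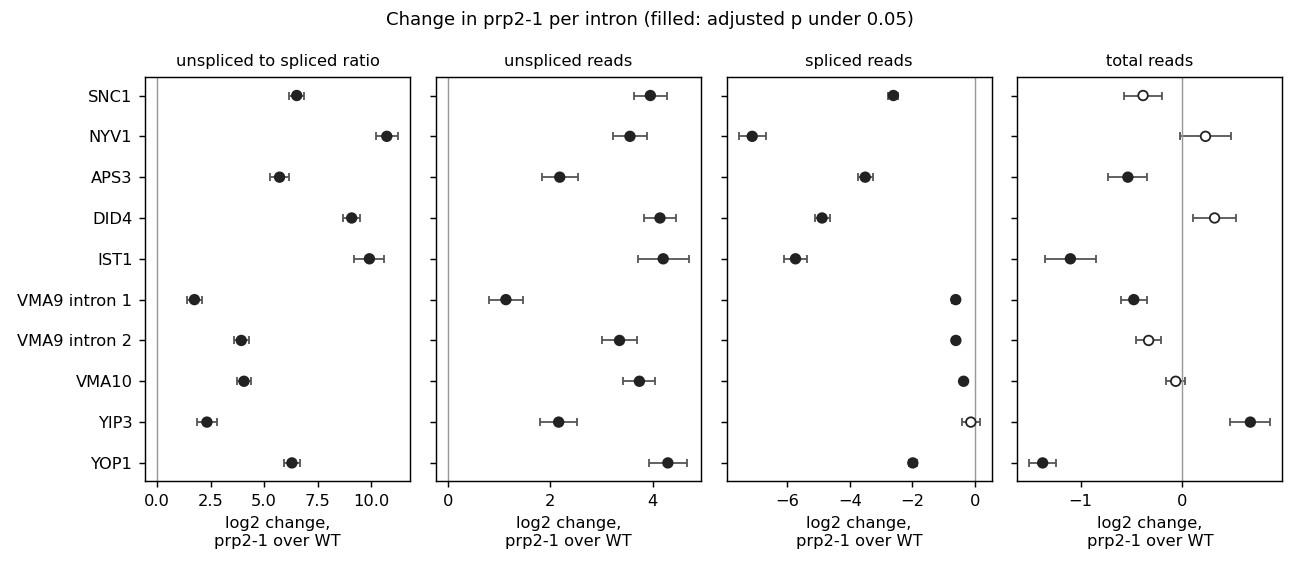
Log2 change in prp2-1 over WT (horizontal axes) of the unspliced to spliced ratio, unspliced, spliced and total reads of the 10 tested introns, with bars of 1 SE. Filled points passed the adjusted p threshold of 0.05; spliced reads spread from -7.13 to -0.12 and unspliced reads from 1.13 to 4.29, and total reads lie on both sides of 0.

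In total reads, spliced plus unspliced, 4 of the 10 introns fell (background 23.7% of all tested introns and 31.8% outside ribosomal protein genes). In the same test 1 rose (19.7% and 20%) and 5 did not pass. YOP1 had 1564, 1728 and 1550 scaled total reads in WT and 619, 684 and 561 in prp2-1, a fall to 38.5% of the WT mean (log2 change -1.38 ± 0.13, adjusted p = 2.34e-05). IST1 had 66.0, 94.6 and 70.1 in WT and 29.2, 31.0 and 47.1 in prp2-1, a fall to 46.5% (-1.10 ± 0.25, adjusted p = 0.00711). For both genes every mutant library lay below every WT library. Such separation in total reads, in either direction, held for 6 of the 10 introns and for 154 of all 274 tested introns. Set against the loss of scaled spliced reads, the gain of unspliced reads was 17.0% in YOP1 and 44.1% in IST1. Low shares were not confined to these genes, with 14.8% in VMA9 intron 1, 39.6% in VMA9 intron 2 and 60.75% in APS3. The same share was 71.0% in SNC1, 81.5% in VMA10, 120% in NYV1 and 128% in DID4, and the total reads of these 4 introns did not pass the test, with log2 values of -0.38, -0.06, 0.24 and 0.33. Spliced reads of DID4 and NYV1 were thus nearly gone while the sum of both forms overlapped between groups.

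The other results on total reads depended on which libraries were used. VMA9 intron 1 fell by 0.47 on the log2 scale (adjusted p = 0.0173). Without WT replicate C its adjusted p was 0.0613, and without prp2-1 replicate A it was 0.0520. VMA9 intron 2, in the same transcript, had -0.33 (adjusted p = 0.0584) and passed without prp2-1 replicate A (-0.42, adjusted p = 0.0406). APS3 fell by 0.53 (adjusted p = 0.0491). Leaving out WT replicate A (adjusted p = 0.133) or B (0.128), or prp2-1 replicate A (0.135) or B (0.106), ended the call. SNC1 passed as lower without prp2-1 replicate C (-0.63, adjusted p = 0.00176). YIP3 rose by 0.68 (adjusted p = 0.0230) in the full counts. When any WT library was left out the call was lost, at adjusted p of 0.0814 (A), 0.0517 (B) and 0.1004 (C), and so it was without prp2-1 replicate A (0.0567) or B (0.0507).

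**Figure D4:**
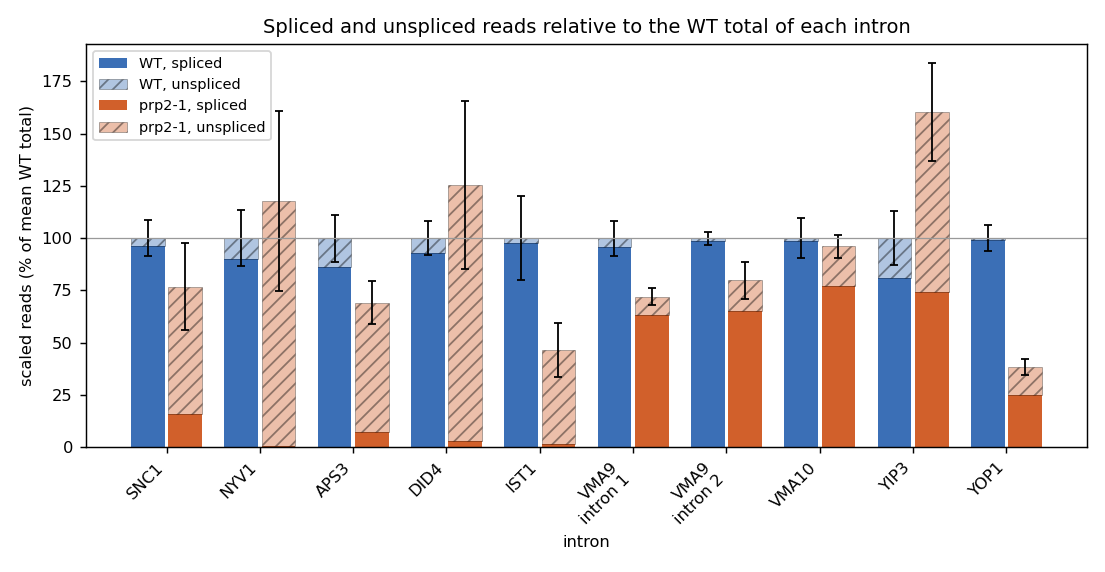
Scaled reads as a percent of each intron's mean WT total (vertical axis), split into spliced (solid) and unspliced (hatched) reads, for WT (blue) and prp2-1 (orange); bars are means of 3 libraries and error bars the SD of the total. The spliced part is nearly absent for NYV1, IST1 and DID4 in prp2-1 and stays above 60% for VMA9 and VMA10, and the total of YOP1 is 38.5%.

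Genes listed under transport between the endoplasmic reticulum and the Golgi were read in the same way. Of their 13 tested introns 12 rose in the ratio, close to the background of 93.4% (91.8% outside ribosomal protein genes). Their median log2 change was 5.43, beside 5.40 over the tested introns outside ribosomal protein genes. The largest change was that of SEC17 (7.73), which encodes the SNARE-disassembly cofactor alpha-SNAP, and the median that of ERD2 (5.43), the receptor for retained luminal proteins. The smallest was that of ARF2 (2.27, adjusted p = 0.0741), a small GTPase of Golgi vesicles, which did not pass. Replicate B stood apart for ARF2 in both strains. Its spliced reads were 36, 1833 and 54 in replicates A, B and C of WT, and 36, 488 and 41 in prp2-1. The unspliced percent of ARF2 was 56.0% ± 41.2 in WT and 78.3% ± 27.1 in prp2-1, so its small change is uncertain. The lists were not tested against each other. GOT1 was not tested, with 1 read in all.

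The authors also deposited counts of random draws of 200000, 400000 or 800000 reads from each library, 5 at each depth. Not all drawn reads were counted, and the counted reads averaged 137745, 275571 and 551593 per library. At 200000 reads, 9 introns reached the mean of 10 reads (IST1 did not), and all 9 rose in the ratio in 5 of 5 draws, beside a background of 89.6% summed over the draws. At 400000 and 800000 reads, 10 of 10 rose in every draw, beside 92.5% and 93.1%. At 200000 reads, IST1 had no unspliced read in 11 of 15 WT draws, and NYV1 had no spliced read in 11 of 15 prp2-1 draws. At 800000 reads the numbers were 5 and 6 of 15. Draws of 1 library are not replicates.

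For 9 of the 10 tested introns, the drawn spliced reads were 0.82 to 1.06 times what the full counts predict. For YIP3 they were 2.14 to 2.22 times as many. At 800000 reads YIP3 averaged 96.0, 112 and 99.8 spliced reads in the A, B and C libraries of WT and 22.6, 33.2 and 19.8 in prp2-1. In WT replicate A the draw thus held more spliced reads than the 88 of the full counts, which a subset cannot. Of 251 introns compared, 27 had drawn spliced reads outside 0.8 to 1.25 times the prediction. By the draws of 800000 reads, the unspliced percent of YIP3 was 5.66% ± 0.564 in WT and 53.4% ± 9.25 in prp2-1. The edgeR log2 changes over those 5 draws were 3.87 to 5.01 in the ratio, -2.13 to -1.75 in spliced reads and -1.10 to -0.78 in total reads. The rise of the YIP3 ratio and of its unspliced reads held in both tables. In the drawn counts its spliced reads fell in 5 of 5 draws at each depth. Its total was lower in 5 of 5 draws at 400000 and at 800000 reads, where the full counts had it higher, and passed in 0 of 5 draws at 200000. The cause of the difference between the tables was not tested.

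**Figure D5:**
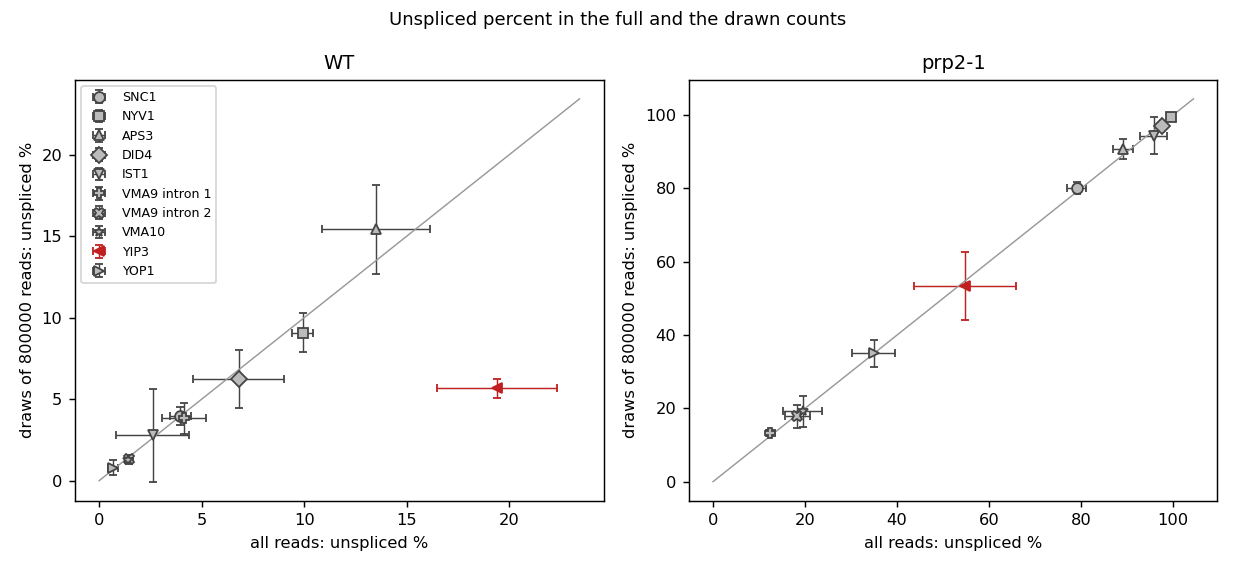
Unspliced percent by the draws of 800000 reads (vertical axes) against all reads (horizontal axes) for the 10 tested introns in WT and in prp2-1; points are means and bars the SD of 3 libraries, and the line marks equal values. YIP3 (red) lies at 19.4% by all reads and 5.66% by the draws in WT, and the other introns lie near the line.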

How the data were processed

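The authors deposited raw counts of spliced (mature) and unspliced (premature) reads for each intron and library, with no normalization, and a second table of counts from random draws of reads. The headers of depth and draw in the second were read as interchanged. Per the submitters' processing notes, fastp 0.19.5, HISAT2 2.2.1, SAMtools and build R64 were used. The sources used here do not say how reads were assigned to a form or whether molecular identifiers were used, so intervals (exact binomial, 95%) and the limit that a count of 0 allows (3 counts) cover counting error only. Positions are the gaps between annotated coding exons (build R64), and the VMA9 introns are assumed to be numbered from the 5′ end. The members and lists were chosen with earlier results of these data known.

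Introns with a mean of at least 10 reads were tested over the whole table with the quasi-likelihood test of edgeR 4.0.16 (R 4.3.3), in 4 tests. The ratio used terms for library, read type and read type by genotype. Total, unspliced and spliced reads used genotype, scaled by TMM factors computed on the sum of both forms. Adjusted p-values are Benjamini-Hochberg over 274 introns, with a threshold of 0.05. Each SE is the log2 change over the root of its F statistic. Alternatives used DESeq2 1.42.0, limma 3.58.1 on log2 values with a pseudocount of 0.5 or 1, other filters and scalings, a replicate block, the drawn reads, and each library left out. Named genes are all member introns and, of the endoplasmic reticulum to Golgi list, the largest, median and smallest change and any that did not pass. Markers named with values were chosen after these were seen.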

Additional observations from a re-analysis of the deposited data

How the results depend on the processing

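Drawn reads enter the values counted here as the median of 5 draws at each depth. For the 10 tested introns, the ratio (149 values) and unspliced reads (159 values) kept direction and side of the threshold in every value. Spliced reads did so in 156 of 159 values, the exceptions being YIP3 in drawn reads, and total reads in 133 of 159. In single draws of 200000 reads, the unspliced reads of VMA9 intron 1 passed in 3 of 5 (edgeR adjusted p up to 0.207). The total of YIP3 turned to -0.77, -0.91 and -0.93 on the log2 scale (medians of 5 draws of 200000, 400000 and 800000 reads; these fits were chosen after seeing the data), and the cause was not tested. The total of APS3 was lost with DESeq2 (adjusted p = 0.0740), limma (0.0559), DESeq2 size factors (0.0502) and in drawn reads, and the total of VMA9 intron 2 passed with DESeq2 (0.0222) and limma (0.0461). The total of IST1 did not pass in the median of the draws of 400000 reads (adjusted p = 0.0744). Over all introns, the count with a lower ratio was 0 by edgeR (0 also at an unadjusted p under 0.05) and 1 by DESeq2 and by limma with either pseudocount. Leaving out each library gave 0 to 1 for that count, 32 to 50 higher totals (54 with all libraries), 0 to 1 member introns with a higher total, and 7 to 17 introns with higher spliced reads (17 with all). The replicate block moved the total of APS3 to an adjusted p of 0.0784 (-0.54) and changed no other member's call. Libraries that share a letter were not taken as pairs, since the labels state no pairing. Same-letter correlations of deviations were 0.0924 to 0.272 in the ratio and -0.0869 to 0.263 in total reads. In the ratio, though not in total reads, each library correlated best with its own letter. Whether the letters mark pairs is not known. Other scalings moved the median of all introns by at most 0.04 on the log2 scale. Depth limits VPS29, with 22 reads in all.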
